A study of Mus musculus with 2 samples.

Results

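The unfolded protein response (UPR) and the integrated stress response (ISR) are described here by 37 genes, chosen by name from the 27998 genes counted in both libraries, and all 37 were found. They were 3 sensors of stress, 5 transcription factors, 4 stress effectors, 7 genes of amino acid synthesis and transport, 3 tRNA synthetases, 12 chaperones and disulfide isomerases of the endoplasmic reticulum (ER), and 3 genes of ER-associated degradation. WT C57BL/6 mice (C57BL/6J in the methods) were kept either in room air (21% oxygen) or in hyperoxia (80% oxygen) from the day of birth, and whole lungs were taken at 2 weeks of age. The lungs of 8 mice were pooled into 1 single-cell RNA sequencing (scRNA-seq) library per group, so that neither group had a replicate and no test between the groups was possible. Hyperoxia of newborn mice is used as a model of bronchopulmonary dysplasia, and the cells were released from the lungs by enzymatic digestion at 37°C.

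Proteins that enter the ER are folded there with the help of chaperones such as *Hspa5* (BiP), and unfolded proteins that accumulate activate 3 sensors in its membrane. *Ern1* (IRE1) splices the mRNA of *Xbp1*, *Atf6* is cut into an active transcription factor, and *Eif2ak3* (PERK) phosphorylates the initiation factor eIF2, which lowers translation in general and favours that of *Atf4* and *Atf5*. The ISR is the part of this response that starts from eIF2, and it can also be started from outside the ER, by lack of amino acids, by double-stranded RNA, by heme deficiency or by mitochondrial stress. XBP1 and ATF6 act mainly on chaperones and on degradation, and ATF4 acts mainly on amino acid synthesis, tRNA synthetases and the pro-apoptotic factor *Ddit3* (CHOP). Alveolar type II (AT2) cells, which secrete surfactant, and plasma cells, which secrete antibodies, are known for a large ER. The libraries count mRNA, so that splicing of *Xbp1*, cleavage of ATF6, phosphorylation and translation were not measured.

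The room air library held 3680 cells and the hyperoxia library 10472, with medians of 8070.5 and 7230.5 unique molecular identifiers (UMIs, counted mRNA molecules) per cell. Clusters were assigned to 5 lineages and to 21 cell types by marker genes. Names carry the ending "-like", since they were rebuilt from the counts, and 16 types had at least 50 cells in both libraries. The UMIs of a gene were summed over the cells of a group and divided by all UMIs of these cells, and scaled to 1000000 UMIs (CPM). CPM carry no gene length, so that levels are compared between cells and not between genes. In such a sum, fewer cells with a gene and less mRNA per cell cannot be told apart. A member was called higher or lower when the 2 libraries differed at least 1.5-fold, provided that the mean CPM was at least 20 and that at least 30 UMIs were counted. The 95% intervals given in brackets (exact Poisson for CPM, exact conditional for ratios, Clopper-Pearson for shares) cover counting error only, and not the differences between mice or between libraries. The 2 libraries shared 17 barcodes, which were no more alike in their counts (median correlation 0.414 over genes) than pairs of different barcodes (0.412).

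Promoters of 6 members that the results turn on are shown because each holds a motif named for the UPR or for the ISR. They are the 170 bases before the RefSeq transcription start, on build GRCm38.p6, written 5′ to 3′ on the strand of the gene, with the fixed letters of the motif in capitals. The ER stress element, CCAAT and CCACG with 9 bases between them, on either strand, is the site named for ATF6 and XBP1. The C/EBP-ATF response element, TGATGNAAN on either strand, is the site named for dimers of ATF4 with C/EBP factors.
Hspa5, chr2:34771920-34772089 (+ strand): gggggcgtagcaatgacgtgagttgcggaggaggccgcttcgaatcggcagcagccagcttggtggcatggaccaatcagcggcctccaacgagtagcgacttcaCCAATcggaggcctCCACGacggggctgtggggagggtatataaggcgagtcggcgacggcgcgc
Calr, chr8:84846932-84847101 (- strand): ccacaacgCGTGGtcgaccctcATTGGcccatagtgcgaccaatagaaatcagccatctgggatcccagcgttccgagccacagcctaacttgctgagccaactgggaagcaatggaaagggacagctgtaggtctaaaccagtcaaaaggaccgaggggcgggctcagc
Creld2, chr15:88819476-88819645 (+ strand): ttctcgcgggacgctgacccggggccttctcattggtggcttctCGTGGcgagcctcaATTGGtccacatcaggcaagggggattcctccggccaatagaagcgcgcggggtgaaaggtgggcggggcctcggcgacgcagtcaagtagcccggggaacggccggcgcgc
Asns, chr6:7693210-7693379 (- strand): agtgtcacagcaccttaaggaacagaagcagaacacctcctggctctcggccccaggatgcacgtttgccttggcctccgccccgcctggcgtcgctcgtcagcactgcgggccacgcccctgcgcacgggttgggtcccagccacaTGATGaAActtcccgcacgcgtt
Herpud1, chr8:94386259-94386428 (+ strand): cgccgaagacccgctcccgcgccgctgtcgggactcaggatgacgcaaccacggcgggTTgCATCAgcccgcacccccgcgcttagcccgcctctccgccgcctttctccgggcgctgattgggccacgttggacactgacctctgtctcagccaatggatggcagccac
Atf3, chr1:191183334-191183503 (- strand): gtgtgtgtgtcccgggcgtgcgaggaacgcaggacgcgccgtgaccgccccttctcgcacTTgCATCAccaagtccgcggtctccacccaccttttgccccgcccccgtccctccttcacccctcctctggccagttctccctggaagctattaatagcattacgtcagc
*Hspa5*, *Calr* and *Creld2* hold the ER stress element, with its first base 65, 162 and 126 bases before the start, and *Calr* and *Creld2* hold it on the other strand. *Asns*, *Herpud1* and *Atf3* hold the C/EBP-ATF response element, 23, 113 and 111 bases before the start, and *Herpud1* and *Atf3* hold it on the other strand. RefSeq promoters were matched for 32 of the 37 members, and *Atf6*, *Slc7a5*, *Nars*, *Wars* and *Manf* had none. Over the 250 bases before the start, 7 members held the ER stress element, the other 4 being *Hsp90b1*, *Dnajc3*, *Canx* and *Pdia6*. It was held by 37 of 32851 promoters (0.113%). The C/EBP-ATF response element was held by 5 members, *Chac1* and *Aars* in addition to those shown, and by 3.44% of all promoters. The UPR element TGACGTGG was held by 0 members and by 0.563% of all promoters. Only these letters and spacings were searched, so that other forms of the elements stay unmarked. The *Herpud1* stretch, for example, also holds attgggccacg, in which attgg and ccacg stand closer together than the searched spacing. A match is a run of letters and not a measured site.

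Over all cells the members differed little between the libraries. Of the 29 members that met the limits, *Atf5*, a transcription factor of the ISR, was called higher, from 30.7 (28.9 to 32.5) to 49.6 (48.2 to 51.1) CPM, and no member was called lower. Among all 6939 genes that met the limits, 3.82% were called higher and 4.02% lower. The median log2 ratio was 0.03 over the members and 0.02 over all genes, and the 12 chaperones and disulfide isomerases summed to 3175 CPM (room air) and 3201 CPM (hyperoxia). In the 5 lineages, 31 members met the limits at least once and 24 in every lineage. *Ern1*, *Trib3*, *Chac1*, *Asns*, *Psat1* and *Slc7a5* met them in no lineage. There were 7 calls in all, and they concerned *Atf5*, *Herpud1*, *Atf3* and *Xbp1* alone. Of 25 members tested in endothelial-like cells, 1 was called higher and 1 lower (all genes 6.47% and 7.64%), and of 26 in stromal-like cells, 1 was called higher and 0 lower (5.18% and 4.75%). Of 26 in epithelial-like cells, 2 were called higher and 1 lower (3.35% and 8.42%). Of 28 in myeloid-like cells, 1 was called higher and 0 lower (4.19% and 7.59%), and of 30 in lymphocyte-like cells none was called (1.91% and 2.01%). These shares are near those of all genes. The median log2 ratio of the members lay between 0.01 and 0.07 in the 5 lineages, where that of all genes lay between -0.08 and 0.05.

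**Figure D1:**
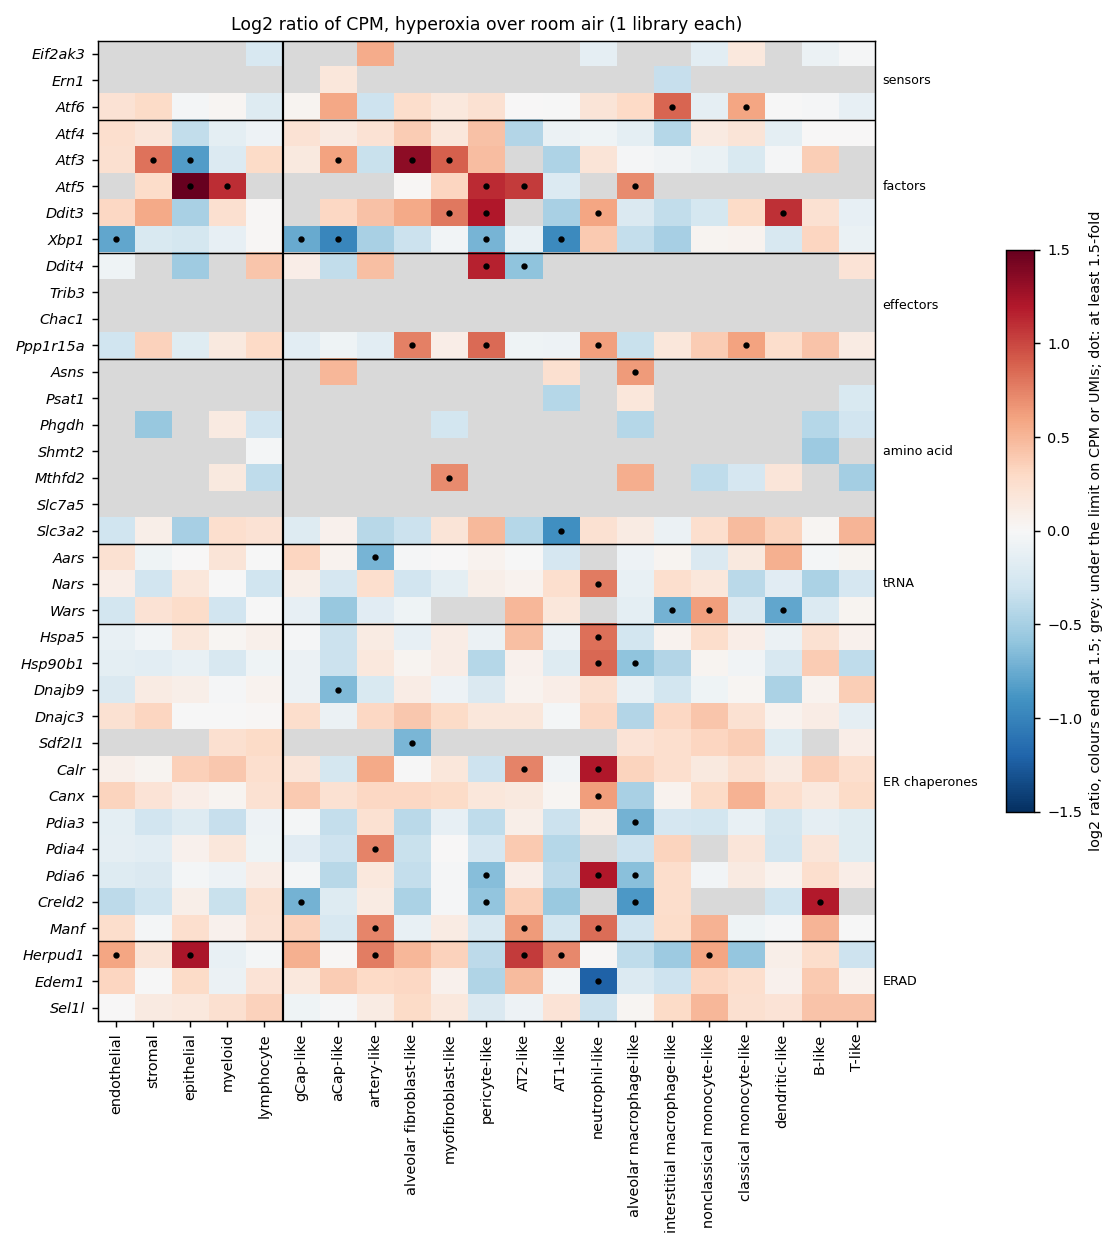
Log2 ratio of CPM, hyperoxia over room air, of the 37 members (rows, grouped by role) in the 5 lineages and 16 cell types (columns), with dots at calls and grey where the limits on CPM and UMIs were not met. Red dots stand in the rows of *Atf5*, *Herpud1* and *Atf3* and in the neutrophil-like column, and blue dots in the row of *Xbp1*, and *Atf3* also has a blue dot in the epithelial lineage.

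*Atf5* (ENSMUSG00000038539, chr7:44812256-44816658, minus strand, GRCm38), which is translated when eIF2 is phosphorylated, was the member with the largest ratio in a lineage. In epithelial-like cells it was counted at 24.1 (19.1 to 30.1) CPM for room air and at 78.1 (73.4 to 83.1) CPM in hyperoxia, a ratio of 3.24 (2.57 to 4.13). Of these hyperoxia counts, 567 UMIs came from a cluster of 186 cells, described below, that held 0 cells of room air. Over the alternative settings the log2 ratio in epithelial-like cells lay between 0.88 and 1.84, against 1.70 in the main setting. In myeloid-like cells *Atf5* was at 15.4 and 33.4 CPM, a ratio of 2.16 (1.74 to 2.71). In stromal-like cells, where *Atf5* was already at 65.6 CPM in room air, it was at 79.7 CPM in hyperoxia. The endothelial-like cells (12.4 and 20.3 CPM) and lymphocyte-like cells (6.66 and 8.31 CPM) remained under the limits. The hyperoxia library thus had the higher value in every lineage.

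*Atf4*, the central factor of the ISR, whose control lies mainly in translation, was called in no lineage. It was at 257 and 307 CPM in endothelial-like cells, a ratio of 1.19 (1.14 to 1.26), and at 112 and 87.1 CPM in epithelial-like cells, a ratio of 0.775 (0.688 to 0.874). The ratios in stromal-, myeloid- and lymphocyte-like cells were 1.14, 0.901 and 0.952. *Ddit3*, the pro-apoptotic target of ATF4, was closest to a call in stromal-like cells, with 37.4 and 55.4 CPM and a ratio of 1.48 (1.33 to 1.65). In epithelial-like cells it was at 26.0 and 18.6 CPM. *Atf4* and *Ddit3* thus lay below room air in the summed lineage where *Atf5* had its largest ratio. In the cluster that gave 567 of its *Atf5* UMIs, *Atf4* was at 102 CPM, against 105 CPM in AT2-like cells of room air. *Ddit3* was at 28.6 against 22.3 CPM there, and neither was past the fold.

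*Xbp1* (ENSMUSG00000020484, chr11:5520659-5525893, plus strand), whose spliced form encodes the UPR factor, fell in endothelial-like cells from 149 (141 to 158) to 87.0 (83.0 to 91.2) CPM, a ratio of 0.583 (0.542 to 0.628). The 2 intervals do not overlap. All 6 genes of a cycling list were called lower beside it, with summed levels of 414 and 53.0 CPM. Of 9 interferon response genes 4 met the limits and 3 were called lower, with 510 and 301 CPM for the 9. The part of either list in the result was not tested. In the other lineages the ratio was within the fold, with 138 and 118 CPM in stromal-like, 126 and 105 CPM in epithelial-like, 200.2 and 183 CPM in myeloid-like and 40.2 and 40.5 CPM in lymphocyte-like cells. *Atf3* (ENSMUSG00000026628, chr1:191170296-191218039, minus strand), a target of ATF4 that many other stimuli also induce within minutes, went in opposite directions. It was called higher in stromal-like cells, from 72.7 to 128 CPM (1.76, 1.64 to 1.90), and lower in epithelial-like cells, from 28.4 to 15.8 CPM (0.558, 0.435 to 0.720). No single cell type had *Atf3* called lower, and its lowest log2 ratio was -0.46 in AT1-like cells. These were 66 of 231 epithelial-like cells in room air and 139 of 956 in hyperoxia. The hyperoxia sum also held the cluster of 186 cells described below, and the part of this make-up was not tested. A list of 14 genes of the response to tissue dissociation moved beside it. In stromal-like cells 6 of the 14 were called higher and none lower, with summed levels of 7909 and 11807 CPM. In epithelial-like cells none was called higher and 7 lower, with 2024 and 1614 CPM. The part of that response in the *Atf3* values was not tested.

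*Herpud1* (ENSMUSG00000031770, chr8:94386438-94395377, plus strand), an ER membrane protein that takes part in ER-associated degradation, was called higher in epithelial-like cells, from 130.4 (118 to 143) to 305 (296 to 315) CPM, a ratio of 2.34 (2.12 to 2.59). In endothelial-like cells it was at 50.1 and 75.6 CPM, a ratio of 1.51 (1.35 to 1.68) that was just past the fold and was called under 9 of 13 alternative settings. It was called in neither gCap-like nor aCap-like cells, the capillary types. The gCap-like cells, with the lowest *Herpud1* of any type in room air (39.9 CPM), were 586 of 1037 endothelial-like cells there. In hyperoxia they were 858 of 2547, while aCap-like cells went from 151 to 1118. The part of this shift in the ratio was not tested. The other lineages lay between 76.9 and 92.7 CPM in hyperoxia and were not called. *Sel1l*, which with its ubiquitin ligase partner forms the exit channel for misfolded proteins, and *Edem1*, which selects misfolded glycoproteins, were called in no lineage. *Sel1l* was at 107 and 120.0 CPM in epithelial-like and *Edem1* at 80.5 and 75.6 CPM in myeloid-like cells, where each had its highest level in room air.

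The 12 ER chaperones and disulfide isomerases were called in no lineage. *Hspa5*, the Hsp70 of the ER and the usual readout of the UPR, was at 580.0 and 537 CPM in endothelial-like cells, a ratio of 0.926 (0.895 to 0.958). In epithelial-like cells it was at 493 and 554 CPM, a ratio of 1.12 (1.07 to 1.19). Stromal-, myeloid- and lymphocyte-like cells had ratios of 0.974, 1.02 and 1.06. In each lineage the interval of *Hspa5* thus lay within the fold. *Calr*, a lectin chaperone, was at 404 and 536 CPM in myeloid-like and at 282 and 361 CPM in epithelial-like cells. *Pdia3*, its disulfide isomerase partner, was at 441 and 362 CPM in stromal-like and at 266 and 209 CPM in myeloid-like cells. *Hsp90b1* (GRP94), *Dnajb9*, *Dnajc3*, *Canx*, *Pdia4*, *Pdia6*, *Creld2* and *Manf* were not called either. The cochaperone *Sdf2l1* was under the limits in epithelial-like cells, with 7.94 and 17.8 CPM and a ratio of 2.24 (1.49 to 3.51).

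The sensors were counted at low levels. *Eif2ak3* met the limits only in lymphocyte-like cells among the lineages (56.4 and 47.8 CPM), *Ern1* in none (10.9 to 16.3 CPM), and *Atf6* in all 5 (40.5 to 76.2 CPM), without a call. Among the effectors, *Ppp1r15a* (GADD34), which directs the dephosphorylation of eIF2, was at 351 and 286 CPM in endothelial-like and at 218 and 268 CPM in lymphocyte-like cells, without a call. *Ddit4* (REDD1), an inhibitor of mTORC1, was at 50.6 and 48.3 CPM in endothelial-like cells. *Trib3*, a pseudokinase target of ATF4 and CHOP, and *Chac1*, which degrades glutathione, stayed below 12 CPM in every lineage and library.

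Of the genes of amino acid synthesis, *Asns*, the asparagine synthetase and a textbook target of ATF4, had the higher value in hyperoxia in every lineage, although it met the limits in none. It was at 8.88 and 20.9 CPM in endothelial-like cells, a ratio of 2.35 (1.83 to 3.06), and at 2.42 and 5.58 CPM in stromal-like cells (2.30, 1.54 to 3.57). Epithelial-like cells had 10.4 and 21.1 CPM (2.03, 1.42 to 2.99), myeloid-like cells 7.19 and 14.7 CPM (2.04, 1.48 to 2.87), and lymphocyte-like cells 1.2 and 2.12 CPM (1.70, 0.680 to 5.06). *Phgdh*, the first enzyme of serine synthesis, had no common direction. It was at 7.33 and 19.7 CPM in epithelial-like cells and at 24.2 and 16.4 CPM in stromal-like cells. *Slc3a2*, the heavy chain of amino acid transporters, was within the fold in all lineages. *Mthfd2* and *Shmt2*, enzymes of mitochondrial one-carbon metabolism, and the tRNA synthetases *Aars*, *Nars* and *Wars* were not called, and *Psat1* and *Slc7a5* lay between 0.497 and 20.5 CPM.

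In the 16 cell types there were 55 calls, 36 higher and 19 lower, in 26 of the members. Over 414 pairs of a member and a type that met the limits, this is 8.7% higher and 4.59% lower, against 7.59% and 8.4% of all genes over the same types. Of the calls, 5 had a counting interval that included a ratio of 1, and 12 had an interval wholly past the fold. No call was made for 11 members, of which *Trib3*, *Chac1* and *Slc7a5* never met the limits. *Atf4* met them in all 16 types and had log2 ratios from -0.44 in AT2-like to 0.44 in pericyte-like cells. *Hspa5* had log2 ratios from -0.33 in aCap-like to 0.82 in neutrophil-like cells, where it had its only call. *Xbp1* had a median log2 ratio of -0.28 over the 16 types and was called lower in 4 of them. *Herpud1* was called higher in 4 types, *Ddit3* and *Ppp1r15a* in 4, and *Atf3*, *Atf5* and *Manf* in 3. *Asns* met the limits in 3 types, with log2 ratios from 0.24 in AT1-like to 0.64 in alveolar macrophage-like cells.

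**Figure D2:**
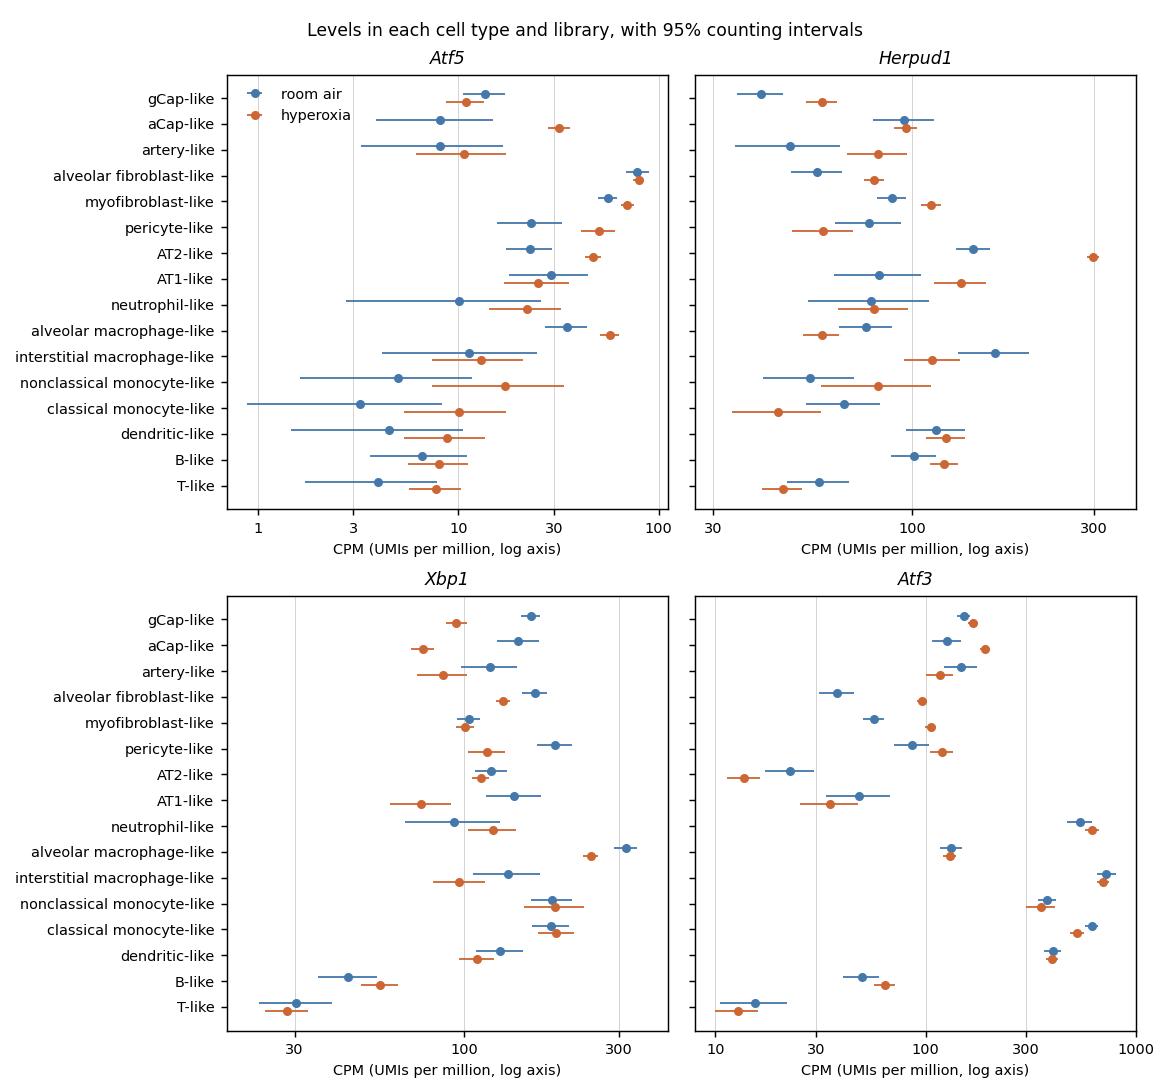
CPM (log axis) of *Atf5*, *Herpud1*, *Xbp1* and *Atf3* in the 16 cell types, in room air and in hyperoxia, with 95% counting intervals as bars. *Herpud1* of AT2-like cells in hyperoxia, at 298 CPM, stands to the right of all other values of its panel, and *Xbp1* lies further left in hyperoxia in gCap-, aCap-, AT1- and pericyte-like cells.

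Before any comparison of the libraries, the members differed between cell types. *Eif2ak3* was highest in B-like cells, with 98.7 (85.7 to 113) CPM for room air and 92.7 (83.9 to 102) CPM for hyperoxia, and neutrophil-like cells came next with 45.4 and 41.4 CPM, below the intervals of the B-like cells. *Atf4* was highest in B-like cells in both libraries (393 and 395 CPM), although in room air its interval overlapped that of neutrophil-like cells, and lowest in AT2-like cells (105 and 76.9 CPM). *Atf3* was highest in interstitial macrophage-like cells (724 and 696 CPM), whose intervals overlap those of the next type. *Ddit3* was highest in neutrophil-like cells (151 and 227 CPM) and *Xbp1* in alveolar macrophage-like cells (314 and 245 CPM), both clear of the next type by their intervals. *Ddit4* was highest in artery-like cells, with 144 and 198 CPM against 44.4 and 54.8 CPM in the next type. *Phgdh* was highest in alveolar macrophage-like cells, with 188 and 139 CPM, followed by T-like cells with 77.7 and 63.7 CPM. *Psat1* (71.9 and 53.6 CPM), *Asns* (27.7 and 32.7 CPM) and *Dnajc3* (335 and 329 CPM) were highest in AT1-like cells, with intervals that overlapped the next type for *Asns* in both libraries and for the others in hyperoxia. *Hsp90b1* was highest in myofibroblast-like cells (1459 and 1583 CPM), where the interval of room air overlapped that of pericyte-like cells, and *Sdf2l1* in dendritic-like cells (129 and 114 CPM). Neutrophil-like cells had the lowest level of *Hsp90b1*, *Dnajc3*, *Sdf2l1*, *Calr*, *Canx*, *Pdia3*, *Pdia6* and *Manf* in both libraries. The adventitial fibroblast-like, vein-like, NK-like, ILC2-like and smooth muscle-like cells had under 50 cells in room air and were read in hyperoxia only, where the adventitial fibroblast-like cells had the highest *Atf5* of all types, 153 (135 to 172) CPM.

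In AT2-like cells (165 and 631 cells), 4 of 24 members were called higher and 1 lower (all genes 3.95% and 6.04%). *Herpud1* rose from 144 to 298 CPM, a ratio of 2.07 (1.85 to 2.31), and *Atf5* from 22.7 to 47.0 CPM (2.07, 1.57 to 2.77). *Calr* rose from 232 to 388 CPM (1.67, 1.53 to 1.83) and *Manf*, a small secreted protein of the ER, from 114 to 177 CPM (1.56, 1.37 to 1.77). *Ddit4* fell from 31.0 to 20.4 CPM (0.657, 0.503 to 0.866). Beside them, 5 of 14 dissociation genes (1777 and 1530 CPM) and the 3 of 6 cycling genes that met the limits (190 and 10.4 CPM for the 6) were called lower, and their part in these values was not tested. *Hspa5*, at 435 and 594 CPM, was not called. *Atf4* (105 and 76.9 CPM) and *Xbp1* (121 and 112 CPM) were not called either, and *Ddit3* (22.3 and 14.4 CPM) and *Asns* (5.49 and 15 CPM) were under the limits. Different clusters held most AT2-like cells in each library. A cluster led by *Retnla*, *Lyz1* and *Hdc* held 150 of the cells of room air and 18 of hyperoxia, and 3 clusters held 319, 186 and 108 cells of hyperoxia and 7, 1 and 7 of room air. *Herpud1* was at 281, 315 and 331 CPM in these 3 clusters and at 143 CPM in the first one in room air. *Atf5* differed among them, with 27.3, 74.8 and 64.5 CPM. *Herpud1* stayed past the fold under all 13 alternative settings, and *Manf* under 6 of them. AT1-like cells (66 and 139 cells) had 1 of 27 members called higher and 2 lower (8.22% and 8.85%). *Herpud1* was higher there too, from 81.6 to 134 CPM (1.64, 1.21 to 2.25), whereas *Xbp1* fell from 143 to 73.7 CPM (0.517, 0.385 to 0.694) and *Slc3a2* from 131 to 69.5 CPM (0.529, 0.389 to 0.718).

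A cluster of epithelial-like cells that was seen in the hyperoxia library alone carried the highest level of several members among all clusters. It was singled out after its values had been seen. It held 186 of 956 epithelial-like cells in hyperoxia (19.5%, 17 to 22.1) and 0 of 231 in room air, which allows a share of up to 1.30%. It was led by *Tenm4*, *Cox6a2* and *Atf5* and stayed unnamed in the main setting, since fewer than 3 markers of a type were raised in it against the other epithelial-like cells. The 7 AT2 markers summed to 167358 CPM in it, to 216216 CPM in the AT2-like cells of hyperoxia and to 244020 CPM in those of room air. Its cells were as deep as the AT2-like cells of hyperoxia, with medians of 14386.5 and 14986 UMIs, and had 4.67% and 4.69% mitochondrial UMIs. The members had not been used for clustering. Genes that vary with them had been, so that the values that follow describe the cluster and are no test.

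Against the AT2-like cells of the same library, 6 of 26 members were higher by the fold and 4 lower (all genes 3.78% and 2.37%), and the sides fell by role. *Atf5* was at 205 (189 to 223) CPM in the cluster and at 47.0 (42.7 to 51.6) CPM in the AT2-like cells, a ratio of 4.37 (3.85 to 4.96). Genes of amino acid synthesis stood on the same side, with 36.2 against 15 CPM for *Asns* (2.40, 1.84 to 3.13) and 35.8 against 15.7 CPM for *Phgdh* (2.28, 1.75 to 2.97). *Ddit3* was at 28.6 against 14.4 CPM (1.99, 1.48 to 2.64), the alanyl-tRNA synthetase *Aars* at 64.1 against 39.0 CPM (1.64, 1.37 to 1.97), and *Sel1l* at 172 against 106 CPM (1.62, 1.45 to 1.81). *Trib3* and *Mthfd2*, which did not meet the limits, were at 31.1 against 5.52 CPM (5.64, 3.94 to 8.13) and at 14.1 against 4.22 CPM. The chaperones stood on the other side. *Hspa5* was at 378 against 594 CPM (0.636, 0.595 to 0.680), *Calr* at 236 against 388 CPM (0.610, 0.560 to 0.663), *Pdia4* at 37.3 against 75.2 CPM (0.495, 0.399 to 0.610), and *Manf* at 117 against 177 CPM (0.657, 0.581 to 0.741). Of 11 chaperones and isomerases, 0 were higher and 4 lower by the fold, with a median log2 ratio of -0.45, against 0.70 for the 4 transcription factors and 0.12 for all genes. *Herpud1*, a degradation gene, was at 403 against 298 CPM (1.35), *Atf4* at 102 against 76.9 CPM and *Xbp1* at 94.1 against 112 CPM, none of them past the fold.

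**Figure D3:**
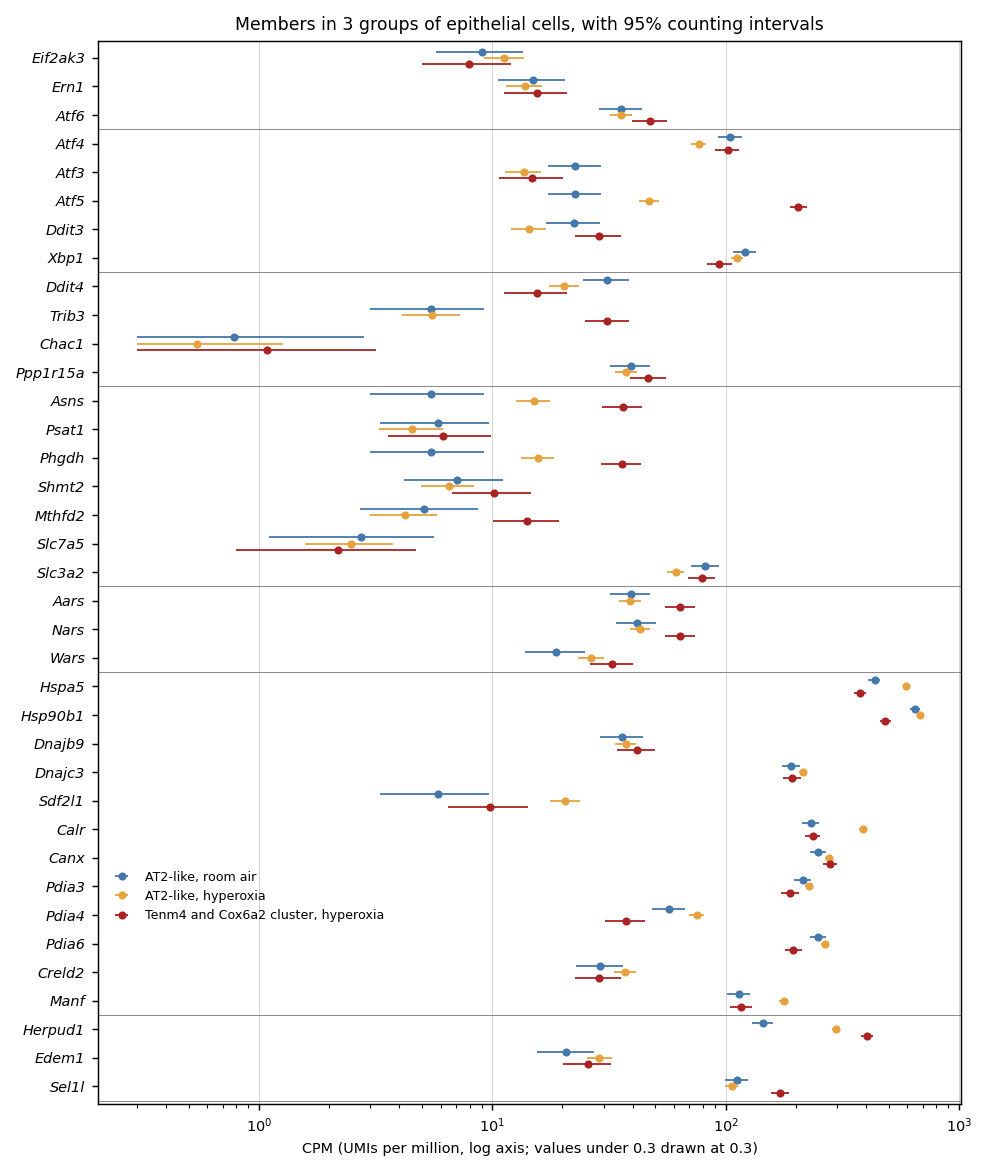
CPM (log axis) of the 37 members in AT2-like cells of room air, AT2-like cells of hyperoxia and the cluster led by *Tenm4* and *Cox6a2* in hyperoxia, with 95% counting intervals. For *Atf5*, *Trib3*, *Asns* and *Phgdh* the cluster lies to the right of both AT2-like groups, and for *Calr* and *Manf* it lies with room air, to the left of the AT2-like cells of hyperoxia.

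Set against the AT2-like cells of room air, *Atf5* of the cluster had a ratio of 9.03 (6.88 to 12.0), *Asns* of 6.60 (3.75 to 12.5) and *Phgdh* of 6.53 (3.71 to 12.4). *Herpud1* had a ratio of 2.79 (2.48 to 3.15). *Calr*, at 236 and 232 CPM, and *Manf*, at 117 and 114 CPM, had the level of room air, whereas *Pdia4* (37.3 against 57.2 CPM) and *Ddit4* (15.6 against 31.0 CPM) were below it. Among 68 pairs of a cluster and a library, this cluster had the highest *Atf5*, *Trib3*, *Herpud1* and *Sel1l*. With each cell thinned to 2000 UMIs, 31.2% (24.6 to 38.4) of its cells had an *Atf5* UMI, against 8.29% (6.26 to 10.7) of AT2-like cells in hyperoxia and 2.47% (0.677 to 6.20) in room air. T-like cells, set beside them for comparison, were at 1.5% in hyperoxia and 1.39% in room air, and whether these UMIs were their own was not tested. Their median depth was 5138 and 7438 UMIs before thinning, against 14386.5 in the cluster, and 15035 and 16166 in the AT2-like cells of hyperoxia and room air. Without thinning the shares were 80.6%, 35.8% and 24.2% in the 3 epithelial groups, and 4.31% and 3.40% in T-like cells. Thinned to 1000 UMIs, the cluster had 18.3% and the AT2-like cells of hyperoxia and of room air 3.65% and 3.66%, so that no difference between these was seen at that depth. With the cluster counted among the AT2-like cells, a setting added after the data had been seen, 3 of 25 members were called higher and 1 lower between the libraries (5.08% and 6.15% of all genes). *Atf5* was then at 83.4 CPM in hyperoxia (a ratio of 3.67, 2.82 to 4.87), *Herpud1* at 322 CPM (2.23) and *Calr* at 353 CPM (1.52), and *Ddit4* was the member called lower, at 19.2 CPM. Under 6 other settings of doublet removal, cell limits and clustering, the cluster that took the largest part of these cells held 0 cells of room air and had 135 to 294 CPM of *Atf5*. That part ranged from 46.8% at resolution 2 to 97.8% with no doublets removed. The receiving cluster was named AT2-like with no doublets removed, with stricter limits on cells, at resolution 0.5 and with each library clustered on its own.

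In stromal types the calls were led by *Atf3*, *Ddit3* and *Ppp1r15a*. Of 26 members in alveolar fibroblast-like cells, 2 were called higher and 1 lower (all genes 7.66% and 6.25%). *Atf3* rose from 37.8 to 96.3 CPM (2.54, 2.1 to 3.11) and *Ppp1r15a* from 74.7 to 126 CPM (1.69, 1.47 to 1.95), and *Sdf2l1* fell from 33.9 to 21.1 CPM (0.623, 0.494 to 0.791). Here 12 of the 14 dissociation genes were called higher and none lower, with summed levels of 7259 and 12544 CPM. In myofibroblast-like cells 3 of 26 members were called higher and none lower (5.03% and 4.74%). They were *Atf3* (56.6 and 106 CPM, 1.86), *Ddit3* (39.6 and 68.5 CPM, 1.73) and *Mthfd2* (17.6 and 28.7 CPM, 1.63), with 5 of 14 dissociation genes called higher. Pericyte-like cells had 4 of 25 members called higher and 3 lower (8.22% and 9.47%). *Ddit3* rose from 37.0 to 85 CPM (2.30, 1.66 to 3.23), *Ddit4* from 15.4 to 34.4 CPM (2.23), *Atf5* from 23.1 to 50.1 CPM (2.17) and *Ppp1r15a* from 181 to 326 CPM (1.80). *Xbp1* fell from 190.2 to 117 CPM (0.617), *Pdia6* from 281 to 181 CPM (0.643) and *Creld2* from 39.3 to 26.0 CPM (0.663). Beside them, 9 of 14 dissociation genes were called higher and none lower. The part of dissociation in these values was not tested. The types were held mainly by different clusters in the 2 libraries. For alveolar fibroblast-like cells, a cluster led by *Cpm*, *Ces1d* and *Gyg* held 171 of the 181 cells of room air and 4 of hyperoxia. For pericyte-like cells, 1 of 3 clusters held 96 of the 122 cells of room air and 4 of hyperoxia.

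In the capillary types the shares of members called lower were near those of all genes. Of 24 members in gCap-like cells, 0 were called higher and 2 lower (6.04% and 8.43%), with *Xbp1* at 160.2 and 94.6 CPM (0.590, 0.534 to 0.653) and *Creld2*, a disulfide isomerase induced by ER stress, at 38.6 and 23.6 CPM (0.612, 0.498 to 0.751). In aCap-like cells 1 of 27 was called higher and 2 lower (7.17% and 7.45%). *Xbp1* was at 147 and 74.5 CPM (0.508, 0.430 to 0.602), its lowest ratio in any type, *Dnajb9*, an ER cochaperone under XBP1, at 61.3 and 38.8 CPM (0.633), and *Atf3* at 126 and 191 CPM (1.52). In gCap-like cells 4 of 4 haemoglobin genes (928 and 106 CPM), 6 of 6 cycling genes (646 and 82.1 CPM) and 3 of 4 matrix secretion genes (collagens and elastin, 749.7 and 569 CPM) were called lower as well, and in aCap-like cells 3 of 14 dissociation genes were called higher. Artery-like cells had 3 of 26 members called higher and 1 lower (12.1% and 12.9%). *Herpud1* (47.7 and 81.0 CPM, 1.70), *Pdia4* (74.5 and 125 CPM, 1.67) and *Manf* (119 and 198 CPM, 1.66) rose, and *Aars* fell from 65.2 to 40.2 CPM (0.616). Beside them the 3 matrix secretion genes that met the limits were called higher, with a summed level of 3149 and 10004 CPM for the 4 of the list, as were 4 of 14 dissociation genes. The part of these lists in the values was not tested. *Xbp1* kept its call under all 12 alternatives in gCap-like and in aCap-like cells. A cluster led by *Kit*, *Wif1* and *Cadm1* held 530 of the 586 gCap-like cells of room air, and 1 led by *Ntrk2*, *Slc6a6* and *Kit* held 679 of the 858 of hyperoxia.

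Among myeloid types, alveolar macrophage-like cells had 2 of 30 members called higher and 4 lower, where 4.62% of all genes were called higher and 20.2% lower. *Atf5* (34.8 and 57.1 CPM, 1.64) and *Asns* (18.1 and 28.2 CPM, 1.55) rose. *Hsp90b1* fell from 1014 to 666 CPM (0.657, 0.623 to 0.694), *Pdia3* from 299 to 182 CPM (0.610), *Pdia6* from 242 to 157 CPM (0.649) and *Creld2* from 45.6 to 25.1 CPM (0.550). The median log2 ratio of all genes was -0.23 in this type, and with TMM factors, which centre most genes, 5 members were called higher and 0 lower. The median log2 ratio was then 0.11 over the members and 0.06 over all genes. The shares of all genes given above are without these factors, so that this count has no share beside it. The 14 dissociation genes had 0 called higher and 5 lower, with 6714 and 4660 CPM, and 6 of 6 cycling genes were called lower, with 828 and 72.1 CPM. The part of either list in these values was not tested. A cluster with 113 of the 147 cells of room air held 5 of hyperoxia, and another with 309 of the 322 cells of hyperoxia held 12 of room air. In interstitial macrophage-like cells *Atf6* was called higher (77.5 and 142 CPM, 1.83, 1.30 to 2.64) and *Wars* lower (1 and 1 of 26, all genes 9.77% and 11%). In classical monocyte-like cells *Atf6* (79.1 and 119 CPM, 1.51) and *Ppp1r15a* (182 and 276 CPM, 1.52) were called higher and none lower (2 and 0 of 26, all genes 8.88% and 6.11%), beside 4 of 14 dissociation genes higher. Dendritic-like cells had *Ddit3* higher (13.5 and 29.0 CPM, 2.14) and *Wars*, the tryptophanyl-tRNA synthetase, lower (31.6 and 18.5 CPM, 0.584), 1 and 1 of 26 (8.15% and 6.28%). In nonclassical monocyte-like cells *Wars* (13 and 18 UMIs in hyperoxia and room air) and *Herpud1* were called higher, both with intervals that include 1 (2 and 0 of 25, all genes 10.5% and 9.01%), beside 8 of 14 dissociation genes higher (9629 and 13692 CPM). T-like cells had 0 of 28 members called (2.66% higher and 4.38% lower over all genes).

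Neutrophil-like cells (105 and 468 cells) had the most calls, with 9 of 21 members higher and 1 lower, where 14.5% of all genes were called higher and 10.6% lower. *Edem1* fell from 75.6 to 32.6 CPM (0.431, 0.259 to 0.723). *Calr* rose from 85.7 to 197 CPM (2.29, 1.59 to 3.40), *Pdia6* from 22.7 to 52.0 CPM (2.29), *Hsp90b1* from 156 to 285 CPM (1.82), *Manf* from 25.2 to 45.0 CPM (1.78) and *Hspa5* from 562 to 993 CPM (1.77, 1.53 to 2.05). *Nars*, *Canx*, *Ppp1r15a* and *Ddit3* were also called higher, with ratios from 1.5 to 1.72, that of *Nars* and that of *Manf* with intervals that include 1. Part of these calls rested on few cells, whereas *Calr* and *Edem1* stayed past the fold under all 14 alternatives. In the largest cluster alone (98 and 389 cells), 3 of 20 members were called higher, *Nars*, *Calr* and *Pdia3*, and *Edem1* was lower (all genes 12.9% higher and 12.4% lower). Without the 1 cell with the most *Hspa5* UMIs, 5 of 21 were called higher and 1, *Edem1*, lower. Of these, *Nars*, *Pdia6* and *Manf* had intervals that include 1, and no share of all genes is given without the cell. The summed level of *Sftpc* and *Scgb1a1*, secretory genes of epithelium that stand for free RNA and were picked after the data had been seen, was 1326 CPM in room air against 2409 CPM in neutrophil-like cells. Beside it, 5 of 14 dissociation genes were called higher, and the part of either list in the result was not tested.

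Several of the highest cells lay in a small cluster, singled out after its values had been seen, with *Csf1* and *Il1r2* among its leading genes, with 56 cells of hyperoxia and 1 of room air and a median of 2387 UMIs. The 7 neutrophil markers summed to 24990 CPM in it, against 90259 CPM in the largest neutrophil-like cluster. The 8 alveolar macrophage markers summed to 240.1 CPM in it, 5 of them at 0, and to 71.3 CPM in the largest cluster, against 10101 CPM in the alveolar macrophage-like cells. Against the largest neutrophil-like cluster of the same library, 14 of 21 members were higher by the fold and 1 lower (all genes 28.3% and 26.5%). *Hspa5* was at 3984 against 640 CPM, *Hsp90b1* at 1493 against 126 CPM, *Ddit3* at 555 against 198 CPM and *Xbp1* at 360.1 against 100.2 CPM. A single cell gave much of this. It had 2702 UMIs, of which 578 (21.4%) were of members, against 0.378% in the other neutrophil-like cells of hyperoxia, with 322 UMIs of *Hspa5*, 126 of *Hsp90b1*, 34 of *Calr* and 19 of *Ddit3*. It had 0 UMIs of the 7 neutrophil markers and 3 UMIs of the 8 alveolar macrophage markers, so that its place among the neutrophil-like cells comes from its cluster and not from its own markers. Without it *Hspa5* was at 1600 CPM, a ratio of 2.50 (2.12 to 2.93), and 14 of 21 members were higher by the fold and 3 lower. The shares of all genes above were taken with this cell. The 5 highest cells of each gene held 75.7% of the *Hspa5*, 76.4% of the *Hsp90b1* and 63.5% of the *Ddit3* UMIs of the cluster. Without those 5 cells the levels were 1067, 387 and 224 CPM. The largest cluster, without its own 5 highest cells, had 605, 106 and 178 CPM. Of 51 other ER genes, 24 met the limits and 16 were higher (28.3% over all genes), among them *Vimp* (278 against 44.5 CPM) and *Spcs2* (300.1 against 60.1 CPM). These values describe a cluster of shallow cells and are no test.

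**Figure D4:**
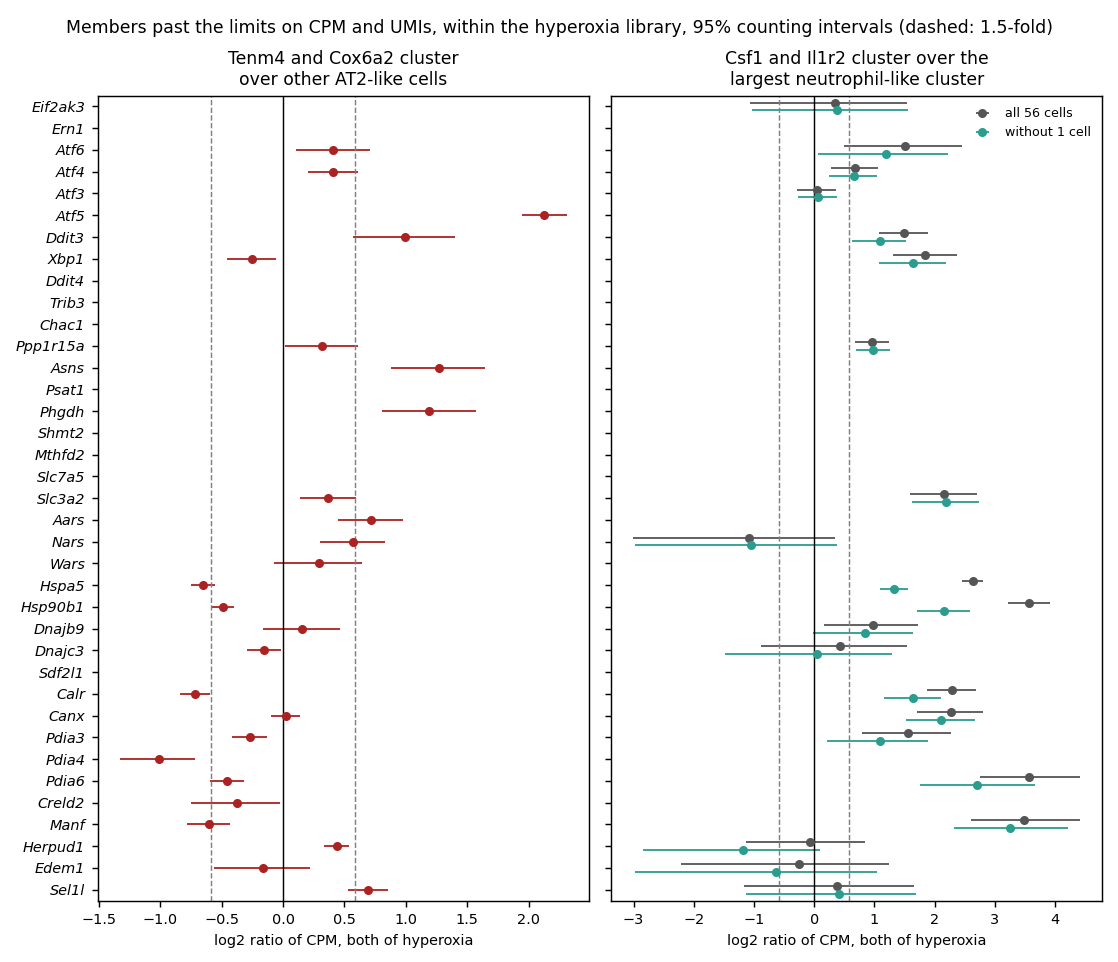
Log2 ratios of the members that met the limits, within the hyperoxia library, for the cluster led by *Tenm4* and *Cox6a2* over AT2-like cells (left) and for the cluster with *Csf1* and *Il1r2* over the largest neutrophil-like cluster, with and without 1 cell (right), with 95% counting intervals. On the left *Atf5*, *Asns* and *Phgdh* lie to the right of 0 and *Hspa5*, *Hsp90b1*, *Calr* and *Pdia4* to the left, and on the right *Hspa5*, *Hsp90b1*, *Calr* and *Pdia6* lie to the right of 0 with and without the cell.

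Another such cell stood in the B-like cells (407 and 1321 cells), where *Creld2* alone of 27 members was called higher, from 15.1 to 34.4 CPM (2.28, 1.55 to 3.45), and none lower (all genes 4.91% and 2.86%). This cell, in a cluster with *Mzb1* and *Jchain* among its leading genes, had 10364 UMIs, of which 1273 (12.3%) were of members. It held 82 of the 150 *Creld2* UMIs of the hyperoxia B-like cells, 634 UMIs of *Hsp90b1*, 105 of *Hspa5*, 91 of *Manf* and 69 of *Pdia4*. It also held 278 UMIs of *Mzb1*, a chaperone of antibody secretion, and 269 of *Jchain*, the joining chain of secreted antibodies. Against the other B-like cells of hyperoxia, 11 of 28 members of its cluster were higher by the fold and 2 lower (8.38% and 21.5%), and 4 and 4 of 26 without this cell. Without it *Creld2* was at 15.6 CPM in hyperoxia, a ratio of 1.04 (0.671 to 1.63), and 0 of 26 members were called in B-like cells. Without the whole cluster, also a setting added after the data had been seen, 2 of 26 were called higher and 0 lower (5.65% and 2.39% of all genes). These were *Atf3*, at 30.3 CPM in room air against 52.0 CPM, and *Ddit4*, at 16.1 against 24.3 CPM, and the interval of the *Ddit4* ratio included 1. *Pdia4*, *Phgdh* and *Shmt2* of the cluster remained higher than in the other B-like cells when only the 1 cell was left out, with ratios of 2.73, 3.30 and 2.33. In the sums of B-like cells *Sftpc* and *Scgb1a1* were at 1005 and 1891 CPM, and 10 of 14 dissociation genes were called higher. The 4 haemoglobin genes, which mark red cells, were all called higher, at 52.4 and 1464 CPM summed, and at 59.4 and 1712 CPM without the cluster with *Mzb1* and *Jchain*. The part of these lists in the B-like values was not tested. Across all cells, the members made up a median of 0.425% of a cell's UMIs in room air and 0.416% in hyperoxia. They exceeded 5% in 0 of 3680 and 2 of 10472 cells, those described above, and 2% in 1 and 9 cells.

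**Figure D5:**
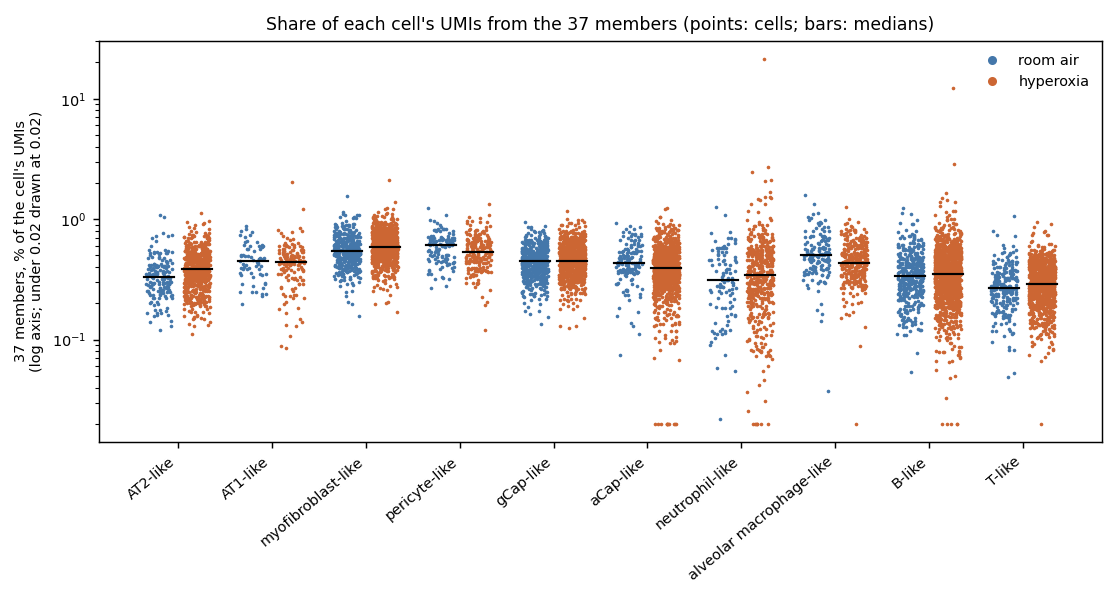
Share of each cell's UMIs that came from the 37 members, in % on a log axis, in 10 cell types of both libraries, with points for cells and bars for medians. Over all cells the medians were 0.425% and 0.416%, and 2 cells of hyperoxia stand above 10%, 1 in the B-like clusters and 1 in the neutrophil-like clusters that had no UMI of a neutrophil marker.

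Other genes of these pathways were counted from 2 lists, of 46 further ISR genes and 51 further ER genes. The ISR list had 3 of 25 called higher in endothelial-like cells (all genes 6.47%), 3 of 30 in stromal-like (5.18%), 3 of 21 in epithelial-like (3.35%), 3 of 24 in myeloid-like (4.19%) and 0 of 18 in lymphocyte-like cells (1.91%), and 2 were lower, both in myeloid-like cells (7.59%). *Gdf15*, a secreted factor induced by ATF4, CHOP and p53, was called higher in 4 lineages. It was at 5.11 and 86.0 CPM in endothelial-like cells (16.8, 12.4 to 23.4), 3.97 and 42.2 CPM in epithelial-like cells (10.6, 6.17 to 20.1), 9.51 and 30.9 CPM in stromal-like cells and 104 and 233 CPM in myeloid-like cells. *Jdp2*, a partner and repressor of ATF factors, was higher in endothelial-, stromal- and myeloid-like cells, with ratios from 1.60 to 1.84. *Slc7a11*, the cystine transporter, rose in myeloid-like cells from 114 to 297 CPM (2.61), and the glutamine transporter *Slc1a5* in stromal-like cells from 20.5 to 47.4 CPM (2.31). The ER list had 1 of 46 called higher in epithelial-like cells and none in the other lineages, and 1 of 40 lower in myeloid-like and 1 of 40 in lymphocyte-like cells (*Sec61g*), where 7.59% and 2.01% of all genes were lower. In the cluster led by *Tenm4* and *Cox6a2*, 7 of 24 ISR genes were higher than in the AT2-like cells of hyperoxia and 0 lower (all genes 3.78% and 2.37%), with *Nupr1*, a stress-induced chromatin protein, at 789 against 304 CPM, *Gdf15* at 86.5 against 33.5 CPM and the leucine sensor *Sesn2* at 31.1 against 14.8 CPM. In the AT2-like cells of room air *Nupr1* was at 421 CPM, above those of hyperoxia, and *Gdf15* at 4.31 CPM. *Cdkn1a*, another leading gene of the cluster, was at 637 CPM, against 267 CPM in AT2-like cells of hyperoxia and 40.8 CPM in room air. Of 46 ER genes, 0 were higher and 2 lower in the cluster than in the AT2-like cells of hyperoxia.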

How the data were processed

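For each library the authors deposited a matrix of UMI counts, made with Cell Ranger against mm10 and not normalized. The version is given as 6.1.1 in the protocol, as 2.1.1 in the submitters' processing notes and as 3.1.0 in the matrix headers, and the kit as version 3 in the methods and as version 2 in the labels. Room air held 4234 barcodes with 39593888 UMIs and hyperoxia 13223 with 111934936. Room air, with fewer cells and fewer UMIs in all, limits the precision.

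Barcodes under 500 genes or above 20% mitochondrial UMIs were dropped. Barcodes most like simulated doublets were removed at 0.8% per 1000 barcodes (129 and 1239). Counts scaled to 10000 per cell, 2000 variable genes, 30 principal components and 20 nearest neighbours were clustered by the Leiden algorithm at resolution 1 (Python 3.11.15, scikit-learn 1.9.0, leidenalg 0.10.2, scipy 1.17.1). The members and the other pathway, dissociation, heat shock, mitochondrial and sex-linked genes were left out of the clustering. Each lineage was then clustered again. Clusters took the name with the highest score, which combined the share of raised markers with the size of their largest log2 differences. Those with fewer than 3 raised markers, with leading genes of another class or with low UMIs stayed unnamed. Among them was a *Scgb1a1* cluster of 62 and 277 cells that entered only the sums over all cells. Unnamed clusters inside a lineage stayed in its sums. Endothelial-like cells held a cluster led by *Chil3*, with myeloid markers (83 and 145 cells), and another with *Kit*, *Pf4* and *Ppbp* (60 and 77 cells). Myeloid-like cells held a cluster led by *Cma1* and *Tpsb2* (88 and 54 cells). An alternative added after the data had been seen left them out.

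With 1 library per group no p-value was computed. The members and lists were chosen with earlier results of these data known. Members past the fold were named in each cell type, the 6 with the largest change first, and *Hspa5*, *Atf4*, *Ddit3*, *Xbp1* and *Asns* in every lineage. The comparison was run on simulated sums with counting error only, which cannot show how it does with differences between cells, mice or libraries. Alternatives changed the doublet step, the limits, the clustering, the naming, the scaling, the fold and the thinning.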

Additional observations from a re-analysis of the deposited data

Results flagged for a closer look

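6 members were at least 1.5-fold higher in hyperoxia in 1 group of cells and at least 1.5-fold lower in another, and in each case the difference between the groups was not tested, since each group had 1 library. *Atf3* had a log2 ratio of 0.82 in stromal-like and of -0.84 in epithelial-like cells, although no single cell type had it called lower. *Ddit4* had 1.16 in pericyte-like and -0.61 in AT2-like cells. *Wars* had 0.63 in nonclassical monocyte-like, -0.71 in interstitial macrophage-like and -0.78 in dendritic-like cells, all with at most 42 UMIs in either library. *Hsp90b1* had 0.87 in neutrophil-like and -0.61 in alveolar macrophage-like cells. *Pdia6* had 1.2 in neutrophil-like, -0.64 in pericyte-like and -0.62 in alveolar macrophage-like cells. *Creld2* had 1.19 in B-like, -0.71 in gCap-like, -0.59 in pericyte-like and -0.86 in alveolar macrophage-like cells. The values of *Hsp90b1* and *Pdia6* in neutrophil-like cells and of *Creld2* in B-like cells rested on single cells or 1 small cluster, as given above.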

How the results depend on the processing

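No paired analysis was possible because each group had 1 library, which also leaves no library that could be left out. Of the 8 results named in all cells and the lineages, 7 stayed past the fold under every alternative, and *Herpud1* in endothelial-like cells did not, with log2 ratios from 0.56 to 0.68. Of the 55 calls in cell types, 20 stayed past the fold under every alternative that gave a value. The median log2 ratio of the members ranged from -0.05 to 0.10 in endothelial-, 0.00 to 0.11 in stromal-, -0.02 to 0.23 in epithelial-, -0.00 to 0.15 in myeloid- and -0.04 to 0.06 in lymphocyte-like cells. With TMM factors that of myeloid-like cells moved from 0.03 to 0.147. TMM factors shifted all genes by 0.14 in epithelial-, 0.11 in myeloid-, 0.10 in gCap- and 0.29 in alveolar macrophage-like cells. *Creld2* in B-like cells reversed to -0.33 with no doublets removed, to -0.18 with stricter limits on cells and to -0.22 with each cell named by its own score. *Ddit3* in neutrophil-like cells reversed to -0.082 with stricter limits, and *Hsp90b1* and *Pdia6* to -0.15 and -0.32 in the largest neutrophil-like cluster, an alternative chosen after seeing the data, as were those that left out single cells or joined clusters. Apart from these cells, the cause was not tested. Numbers of members called higher ranged from 0 to 5 in endothelial-, 0 to 4 in stromal-, 2 to 6 in epithelial-, 0 to 3 in myeloid- and 0 to 1 in lymphocyte-like cells, and from 2 to 14 in neutrophil-like cells, the highest with no limit on CPM. Those called lower ranged from 0 to 2 in the lineages and from 0 to 6 in alveolar macrophage-like cells. No share of all genes stands beside these ranges, so that they show only how the numbers moved with the settings. The limit of 20 on the mean CPM kept *Asns*, *Trib3* and *Chac1* out of the calls in the lineages.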
